A study of Mus musculus with 18 samples.

Results

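The 31 genes described here mark T cells, natural killer (NK) and other cytotoxic lymphocytes, and B cells. They were taken by gene symbol from a list, and all 31 were found among the 49585 gene rows of a normalized read table of mouse kidneys. They fall into 17 T cell genes, 8 NK and cytotoxic genes and 6 B cell genes. All mice carried the genotype labelled Lox-stop-Lox-TetOn-Lin28A, in the study's methods a TRE-*Lin28A* transgene with Lox-stop-Lox-TetOn-rtTA, and the *Lin28A* OE mice alone also carried Six2Cre. This Cre removes the stop cassette before the rtTA transactivator in nephron progenitors and so in the nephrons they form. Both genotypes drank doxycycline (Dox) at 1 g/L for 1, 2 or 5 weeks, and whole kidneys of 3 samples per genotype and time were sequenced, 18 libraries in all. The sample titles call the OE samples Transgen and the control samples WT, although by the genotype label the controls carried the transgene too. The question was how the lymphocyte genes of the kidney differed between OE and control mice at each time. The transgene is switched on in nephron cells, so the lymphocytes themselves were not the targeted cells. The labels give neither age nor sex, and they do not say that each library is a separate animal, so the p-values measure the spread between these samples.

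T cells recognise antigen through a receptor whose alpha and beta chains are anchored to the CD3 chains, and the kinase LCK, bound to CD4 or CD8, starts the signal inside the cell. NK cells and cytotoxic T cells kill through perforin and granzymes, and both depend on cytokines that signal through the IL-2 receptor beta chain. B cells carry membrane immunoglobulin together with CD79A and CD79B, and they become plasma cells that secrete antibody. A healthy kidney holds few lymphocytes, and they gather in it during many kinds of kidney injury. In RNA from whole kidney, fewer cells of a type and less RNA per cell cannot be told apart.

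Promoter sequences are shown for *Cd3d* and *Cd3g*, neighbouring genes read in opposite directions that rose together at 1 week, and for *Lck*, which rose at 1 and 2 weeks. Each is the 250 bases before the RefSeq gene start on GRCm38.p6, 5′ to 3′ on the strand of the gene, and the table used held a promoter for 18 of the 31 genes. *Lck* has 2 starts in it.
Cd3d, chr9:44981536-44981785 (+): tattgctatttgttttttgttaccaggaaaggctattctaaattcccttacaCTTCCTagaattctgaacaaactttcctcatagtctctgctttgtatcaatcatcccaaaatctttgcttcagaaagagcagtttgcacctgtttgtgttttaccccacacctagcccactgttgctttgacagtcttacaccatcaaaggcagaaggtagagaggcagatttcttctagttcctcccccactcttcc
Cd3g, chr9:44980432-44980681 (-): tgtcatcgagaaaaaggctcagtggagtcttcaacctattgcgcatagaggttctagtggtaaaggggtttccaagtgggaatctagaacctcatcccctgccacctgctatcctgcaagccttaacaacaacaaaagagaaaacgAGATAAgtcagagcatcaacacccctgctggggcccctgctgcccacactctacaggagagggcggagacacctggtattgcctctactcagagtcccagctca
Lck, upstream start, chr4:129573642-129573891 (-): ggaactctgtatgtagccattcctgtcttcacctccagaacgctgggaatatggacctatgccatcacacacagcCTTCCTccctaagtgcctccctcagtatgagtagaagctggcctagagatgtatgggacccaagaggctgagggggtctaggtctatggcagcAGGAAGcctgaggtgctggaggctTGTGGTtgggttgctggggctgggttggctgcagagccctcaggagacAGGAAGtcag
Lck, downstream start, chr4:129558373-129558622 (-): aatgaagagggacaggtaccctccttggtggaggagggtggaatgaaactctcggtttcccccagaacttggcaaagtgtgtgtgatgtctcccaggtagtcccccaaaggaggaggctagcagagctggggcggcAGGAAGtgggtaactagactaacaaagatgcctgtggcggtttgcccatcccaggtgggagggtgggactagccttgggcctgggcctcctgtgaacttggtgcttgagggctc
Capitals mark matches, on either strand, to the core letters of factor families that act in lymphocytes, AGGAAG for ETS factors, TGTGGT for RUNX factors and AGATAA for GATA factors. *Cd3d* held 1 ETS match, *Cd3g* 1 GATA match, the upstream *Lck* start 3 ETS matches and 1 RUNX match, and the downstream start 1 ETS match. Among 32851 promoter windows of the same length 29.5% held the ETS letters, 14% the RUNX letters and 9.99% the GATA letters, and no matched letters overlapped. A match is a run of letters and says nothing about whether a factor was bound.

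The values are the reads of a gene scaled by the size factor of its library, called normalized reads below. Library totals ran from 21176911 to 28686369 reads with a median of 25777438. *Lin28a* was at 41737 to 68744 normalized reads in OE kidneys at 1 week, 52622 to 116461 at 2 weeks and 420.1 to 615 at 5 weeks, against 14.4 to 28.5 in the 9 control libraries. *Ptprc*, which encodes the leukocyte antigen CD45, was at 842 to 1015, 778 to 1149 and 467 to 628 in OE kidneys and 320.3 to 449, 306 to 425 and 263 to 370.3 in controls, higher at each time (log2 fold changes of 1.23, 1.49 and 0.86 with adjusted p = 0.000131, 4.93e-06 and 0.00642 from limma). Tests were made with limma on log2(normalized reads + 1) over the 16984 genes with a mean above 10, where the added 1 shrinks the fold changes of weakly read genes. *Xist* was at 6077 normalized reads or more in OE library 1 at 1 week, control library 1 and OE libraries 2 and 3 at 2 weeks, and control library 3 and OE library 2 at 5 weeks, where *Ddx3y* of the Y chromosome was at 3.42 or less. The groups of 1 and 2 weeks were thus uneven in these sex-linked genes, while at 5 weeks each group held 1 such library. Fits that take these genes into account are given with the alternatives.

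All 3 lymphocyte sets were read at low levels in control kidneys. Per kilobase of exon, the mean over the 9 control libraries was highest for *Trac*, the constant region of the T cell receptor alpha chain, at 107.5 normalized reads per kilobase. *Ighm*, the constant region of the IgM heavy chain, followed at 98.1, *Igkc*, the kappa light chain constant region, at 79.7, and *Cd79b*, a signalling chain of the B cell receptor, at 38.8. *Trbc2* and *Trbc1*, the near-identical beta chain constant regions among which reads can be misassigned, were at 20.6 and 12.3, and *Lck* at 15.9. The CD3 chains lay far lower, with *Cd3d* at 4.64, *Cd3g* at 2.96 and *Cd3e* at 1.85 normalized reads per kilobase. At the low end were *Foxp3*, the factor that defines regulatory T cells, at 0.534 and *Ctla4*, an inhibitory receptor of activated T cells, at 0.738. These levels are a description, and the spread between control libraries was often as large as the gap between neighbours in the order. No member differed between control groups of different weeks in limma, edgeR or DESeq2, where limma called 0.0177% of all genes between 2 and 1 weeks, 0% between 5 and 1 weeks and 0.0883% between 5 and 2 weeks. At an unadjusted p under 0.05, limma gave 0, 1 and 5 members in these 3 comparisons, all lower at the later time, where 3.2%, 2.71% and 5.58% of all genes were lower by that rule.

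Of the 31 genes, 24 had a mean above 10 normalized reads and entered the test, 13 of 17 T cell genes, 6 of 8 NK and cytotoxic genes and 5 of 6 B cell genes. *Ms4a1*, with a mean of 10.1, was the lowest that entered, and *Jchain* and *Cd5* stayed just outside with 9.98 and 9.96. A gene can pass such a minimum through the group in which it is high, so counts over the tested genes are descriptions of those genes. Summed over all members, listed in library order 1 to 3, T cell genes gave 299.9, 232 and 413 normalized reads in control and 424, 648 and 1129 in OE kidneys at 1 week, a ratio of means of 2.33. At 2 weeks the sums were 469, 279 and 272 against 350.1, 463 and 734, a ratio of 1.52, and at 5 weeks 324, 308 and 298 against 401, 179.5 and 330.5, a ratio of 0.979. The lowest OE sum exceeded the highest control sum at 1 week, whereas the groups overlapped at 2 and 5 weeks. Much of the difference at 2 weeks lay in *Lck* and *Cd4*, with means of 159 and 110 in OE against 50.5 and 17.9 in control kidneys. The OE mean was above the control mean in 9 of the 13 tested genes at that time, and in 13 of all 17 with the weakly read genes included. The share of all genes by this rule was not computed. The median log2 fold change of all tested genes was then 0.01. In the other direction, *Trac* had means of 33.5 in OE against 119 in control kidneys at 2 weeks and 32.4 against 114 at 5 weeks. The sums without *Trac*, or without both *Lck* and *Cd4*, were not tested. At 5 weeks the ratio went above 1 relative to the total of all values of each library (1.09), without control library 1 (1.002) and without OE library 2 (1.18).

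The NK and cytotoxic sums were 44.6, 21.9 and 137 in control and 152, 214 and 431 in OE kidneys at 1 week, a ratio of 3.91. They were 109.7, 53.3 and 82.0 against 67.5, 112 and 259 at 2 weeks and 42.3, 26.4 and 30.7 against 90.1, 28.0 and 116 at 5 weeks, with ratios of 1.79 and 2.36. The groups were apart at 1 week only, where all OE libraries lay above all controls. Without control library 3 the ratio at 1 week was 7.99, and without OE library 3 that at 2 weeks was 1.10. B cell sums were 447, 248 and 248 in control and 443, 590.4 and 357 in OE kidneys at 1 week, 462, 311 and 338 against 139, 121 and 307 at 2 weeks, and 280.0, 209 and 345 against 313, 108 and 287 at 5 weeks, with ratios of 1.47, 0.510 and 0.849. All OE libraries lay below all controls at 2 weeks on the deposited scaling. The T cell and NK means were then above control, the T cell mean largely through *Lck* and *Cd4*. The B cell groups overlapped at that time relative to the total of all values of each library (ratio 0.665) and on TMM-scaled read counts (0.523). At 5 weeks the B cell ratio was 1.08 without OE library 2. Much of the B cell sum is *Ighm*: without it the log2 difference at 1 week went from 0.59 to -0.077 and at 2 weeks from -1.08 to -0.47. OE library 3 was the highest of its group in the T cell and NK sums at 1 and 2 weeks, and OE library 2 the lowest in all 3 sums at 5 weeks.

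**Figure D1:**
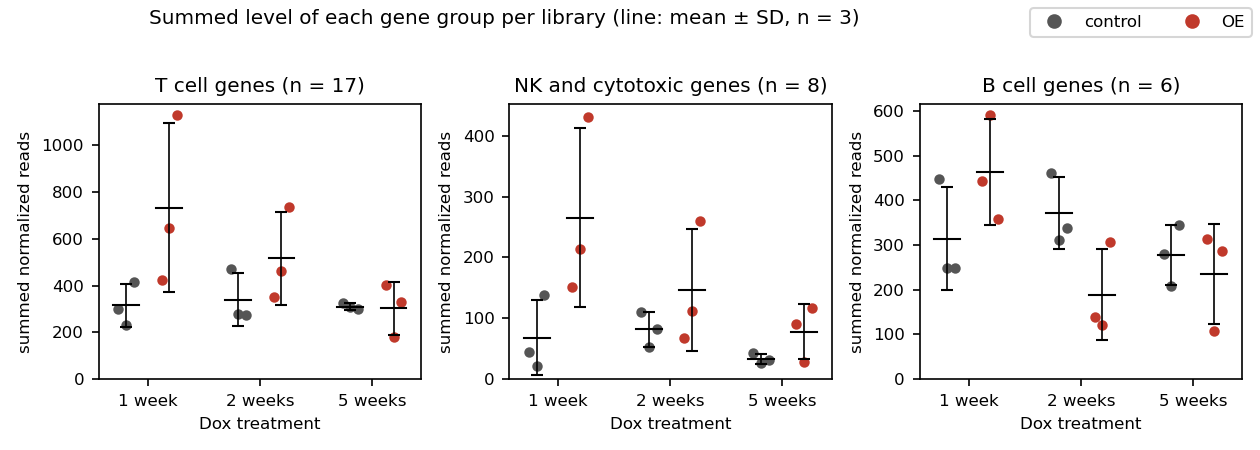
Summed normalized reads (y axis) of the 17 T cell, 8 NK and cytotoxic and 6 B cell genes in each library after 1, 2 and 5 weeks of Dox (x axis), with grey points for control, red points for *Lin28A* OE, a line at the mean and bars of 1 SD cut at 0. T cell and NK sums of the OE libraries lay above all controls at 1 week, with ratios of means of 2.33 and 3.91 (7.99 for NK without control library 3), and on this scaling the B cell sums of the OE libraries lay below all controls at 2 weeks, with a ratio of 0.510.

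Upon 1 week of Dox treatment, 5 of the 13 tested T cell genes rose in OE kidneys and 0 fell, from limma at an adjusted p under 0.05. They were *Cd4*, *Lck*, *Il7r*, *Cd3d* and *Cd3g*. Over all tested genes limma called 18.7% higher and 15.6% lower at this time. The median log2 fold change of the 13 was 1.33, and over all genes it was -0.02. At an unadjusted p under 0.05, 6 were higher and 0 lower, against 22.9% and 20.7% of all genes, and edgeR and DESeq2 each called 6 higher, adding *Trbc2*, where they called 19.3% and 19.8% of all genes higher. Without OE library 2 or 3 limma called 2 of the 13 higher, without control library 1 or 2 it called 3, and with no minimum on the mean 3 of 17, against 9.04% of all genes. For fits without 1 library, here and below, the share of all genes called was not computed, so these counts describe the members only.

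*Cd4*, the coreceptor of helper T cells, had 10.03, 13.1 and 28.8 normalized reads in the control libraries and 86.6, 94.4 and 180.3 in the OE libraries at 1 week. The OE libraries all lay above the controls, and the means were 120.4 ± 52.0 (SD, n = 3) and 17.3 ± 10.04 (SD, n = 3), with a log2 fold change in limma of 2.78 (SE 0.62, adjusted p = 0.00257). At 2 weeks it had 32.3, 9.9999 and 11.4 in control and 38.2, 103 and 189 in OE kidneys, with a log2 fold change in limma of 2.47 (SE 0.62, adjusted p = 0.0027). The lowest OE library stood just above the highest control, and the OE libraries were spread over a wider range than at 1 week. At 5 weeks the values were 25.4, 17.3 and 19.4 and 44.1, 10.3 and 36.9, which overlapped, with a log2 fold change in limma of 0.32 (SE 0.62, adjusted p = 0.778). The fall of this difference between 2 and 5 weeks, -2.15 on the log2 scale, did not pass the interaction test (adjusted p = 0.077 from limma). *Cd4* lies on chromosome 6 from 124864692 to 124888221 of GRCm38.

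*Lck*, the kinase that starts T cell receptor signalling, lies on chromosome 4 from 129548344 to 129573641, and its promoters are printed above. It had 43.5, 43.7 and 57.5 normalized reads in control and 104, 101 and 173 in OE kidneys at 1 week, with a log2 fold change in limma of 1.33 (SE 0.27, adjusted p = 0.00128). The values were 49.1, 47.8 and 54.7 and 197, 134 and 145 at 2 weeks, with a log2 fold change in limma of 1.62 (SE 0.27, adjusted p = 8.51e-05). No OE library overlapped a control at either time, and the controls of both weeks kept within 43.5 to 57.5. At 5 weeks, with 56.0, 31.9 and 34.8 in control and 62.1, 59.8 and 84.4 in OE kidneys, the libraries again did not overlap, but the test was not passed, with a log2 fold change in limma of 0.76 (SE 0.27, adjusted p = 0.0672). Among the OE libraries of 1 week, *Lck* was highest in library 3, as was the T cell sum. At 2 weeks it was highest in OE library 1 (197), where the T cell sum was the lowest of the OE group (350.1). The cause of this was not tested. *Lck* was the only tested T cell gene without overlap at all 3 times. All OE libraries lay above all controls in 25.4%, 31% and 17.3% of all tested genes at 1, 2 and 5 weeks, and at all 3 times in 8.06%.

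*Il7r*, the receptor chain for the survival cytokine IL-7, had 3.34, 4.37 and 12.8 normalized reads in control and 12.5, 36.2 and 40.3 in OE kidneys at 1 week, with a log2 fold change in limma of 2.01 (SE 0.58, adjusted p = 0.0134). OE library 1 lay just below the highest control. At 2 weeks the values were 20.7, 5.56 and 6.83 against 24.0, 32.1 and 76.1, with a log2 fold change in limma of 1.95 (SE 0.58, adjusted p = 0.00851), and at 5 weeks 12.7, 8.20 and 8.18 against 32.4, 23.4 and 38.7, with a log2 fold change in limma of 1.60 (SE 0.58, adjusted p = 0.0713). The groups were apart at 2 and 5 weeks, and at 5 weeks DESeq2 gave an adjusted p of 0.0397. Leaving out single libraries ended the call at 1 week for 3 of the 6 libraries (control 1, OE 2 and OE 3, adjusted p up to 0.0651) and at 2 weeks for OE library 3 (adjusted p = 0.0526). In the libraries with *Ddx3y* above 100 it was 0.0503 at 2 weeks.

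Of the 3 CD3 chains of the receptor complex, *Cd3d* and *Cd3g* rose at 1 week. *Cd3d* had 7.80, 3.28 and 14.9 normalized reads in control and 12.5, 34.3 and 67.0 in OE kidneys, with a log2 fold change in limma of 1.92 (SE 0.69, adjusted p = 0.0396). *Cd3g* had 13.4, 4.37 and 14.9 and 26.2, 36.2 and 56.7, with a log2 fold change in limma of 1.86 (SE 0.61, adjusted p = 0.0263). *Cd3e*, with 5.57, 9.84 and 9.59 and 11.4, 15.3 and 59.2, did not pass, with a log2 fold change in limma of 1.34 (SE 0.69, adjusted p = 0.147). OE library 3 was the highest for all 3 chains. Without it the adjusted p was 0.187 for *Cd3d* and 0.107 for *Cd3g*, and without control library 2, the lowest control of both, 0.167 and 0.129. Without OE library 2 it was 0.0956 and 0.0576, and for *Cd3d* without control library 1 0.0767. With no minimum on the mean it was 0.0787 and 0.0566, and for *Cd3d* with that week alone 0.055. At 2 weeks the log2 fold changes of *Cd3e*, *Cd3d* and *Cd3g* were 0.22, 0.62 and 0.36 and at 5 weeks 0.23, 0.53 and 0.42, with adjusted p-values from limma of 0.458 or more. *Cd3e* overlaps an antisense gene in the annotation, and the strand setting of the counting is not given in the sources used here.

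*Cd8a*, the coreceptor of cytotoxic T cells, did not pass at any time in limma with all libraries. It had 73.6, 23.0 and 96.9 normalized reads in control and 26.2, 44.8 and 49.8 in OE kidneys at 1 week, with overlapping libraries and a log2 fold change in limma of -0.49 (SE 0.66, adjusted p = 0.604). Its log2 fold changes were -0.51 at 2 weeks and -0.39 at 5 weeks, with adjusted p-values of 0.526 and 0.747 from limma. *Cd8b1*, the beta chain of the same coreceptor, stayed below the minimum, with 22 reads over the 3 control libraries and 58 over the 3 OE libraries at 1 week, 15 and 30 at 2 weeks, then 6 and 13 at 5 weeks. The log2 ratio of *Cd8a* to *Cd8b1* at 1 week was 3.01 ± 0.947 (SD, n = 3) in control and 1.10 ± 0.143 (SD, n = 3) in OE kidneys, which did not overlap (exact two-sided permutation p = 0.1, the smallest that 3 against 3 allows). At 2 weeks this ratio was 2.11 ± 0.585 in control against 1.51 ± 0.279 in OE kidneys, and at 5 weeks 3.98 ± 1.47 against 2.90 ± 0.262 (SD, n = 3, exact permutation p = 0.3 and 0.2), with overlap at both times. The log2 ratio of *Cd4* to *Cd3e* was 2.32 ± 0.648 in OE and 0.873 ± 0.566 in control kidneys at 1 week and 3.15 ± 0.306 against 0.893 ± 1.13 at 2 weeks (SD, n = 3, exact permutation p = 0.1 for both), without overlap. At 5 weeks it was 1.75 ± 0.214 and 1.66 ± 0.278 (SD, n = 3, exact permutation p = 0.6), and the libraries overlapped. In all, 8 such ratios were compared at 3 times, 24 comparisons, of which 11 did not overlap, and the lowest adjusted p was 0.218.

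The remaining T cell genes are receptors and costimulators. At 1 week the log2 fold changes were 1.20 for *Trbc1*, 2.04 for *Trbc2*, 0.76 for *Icos*, a costimulatory receptor, 0.68 for *Cd247*, the zeta chain of the receptor complex, and 0.59 for *Cd2*, an adhesion molecule. None of these passed limma's test, with adjusted p-values from 0.0644 to 0.471. *Trbc2* had 12.3, 3.28 and 16.0 normalized reads in control and 13.7, 39.1 and 113 in OE kidneys, where OE library 3 was far above the other two. Without OE library 1, *Trbc1* and *Trbc2* passed (adjusted p = 0.0304 and 0.0215). *Trbc2* also passed in edgeR (log2 fold change 2.41, adjusted p = 0.0335) and in DESeq2 (adjusted p = 0.0138). *Cd247*, on whose span genes of both strands lie, had 24.3, 26.4 and 24.6 in control and 14.4, 10.3 and 10.5 in OE kidneys at 5 weeks. All OE libraries lay below all controls, but the test was not passed, with a log2 fold change in limma of -1.05 (SE 0.44, adjusted p = 0.117).

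**Figure D2:**
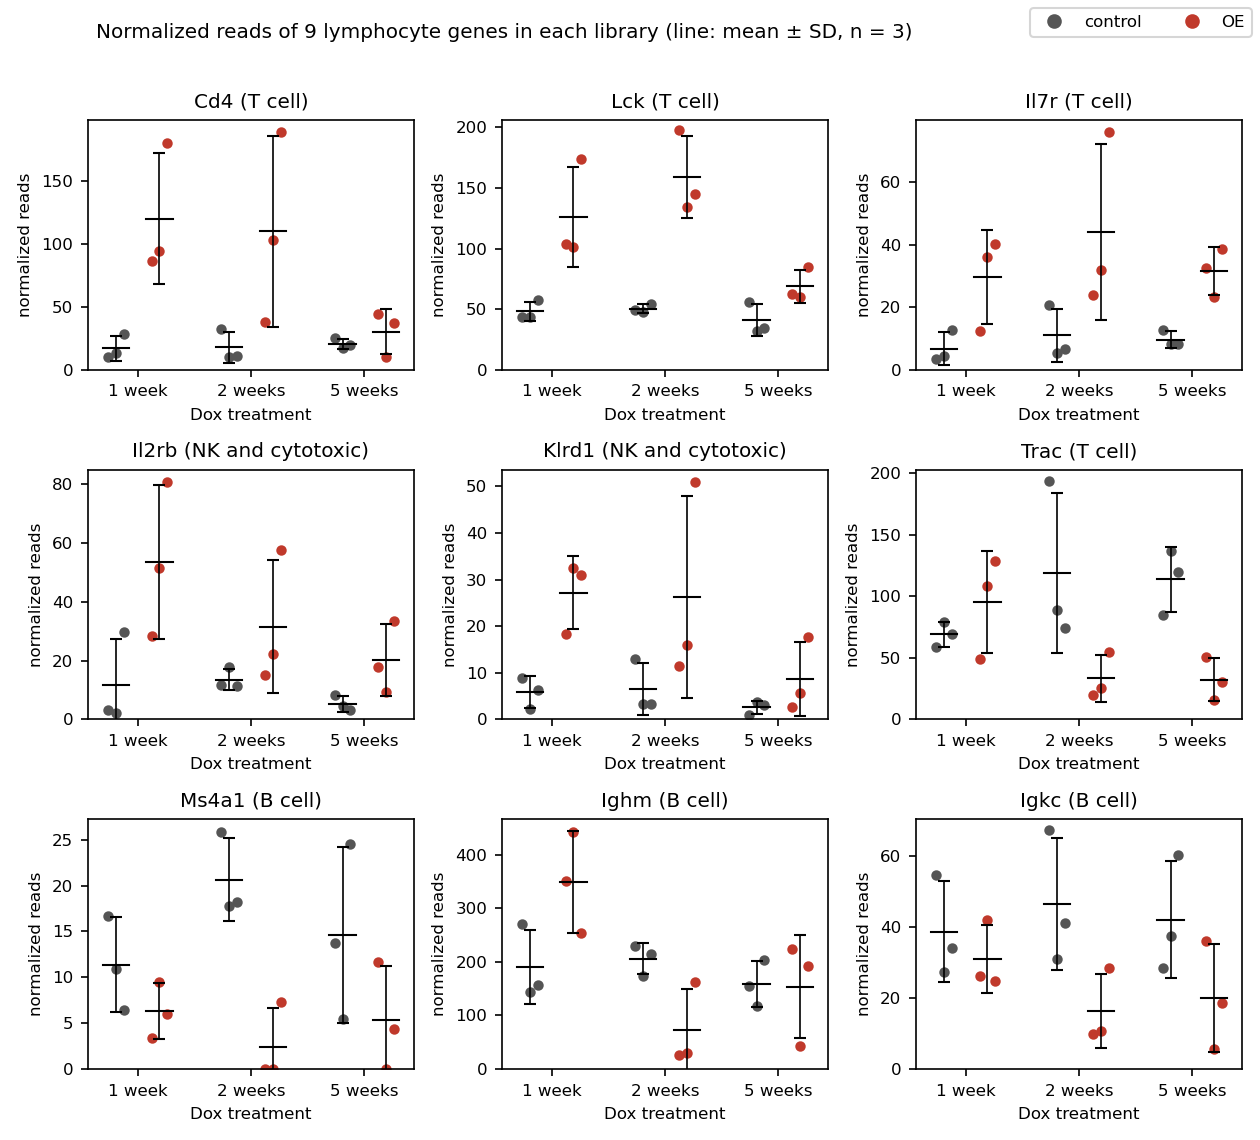
Normalized reads (y axis) of 9 genes in each library after 1, 2 and 5 weeks of Dox (x axis), with grey points for control, red points for *Lin28A* OE, a line at the mean and bars of 1 SD cut at 0. *Cd4* and *Lck* of the OE libraries lay above all controls at 1 and 2 weeks, whereas *Trac* lay below them at 2 and 5 weeks and *Ms4a1*, *Ighm* and *Igkc* at 2 weeks.

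Upon 2 weeks of Dox, 3 tested T cell genes were higher (*Cd4*, *Lck* and *Il7r*) and 1 was lower (*Trac*), where limma called 28.9% of all genes higher and 28.8% lower. At 5 weeks 0 were higher and 1 lower, again *Trac*, against 7.67% and 7.9% of all genes. At an unadjusted p under 0.05 limma gave 2 higher and 2 lower at 5 weeks (14.7% and 15% of all genes), edgeR called 0 higher and 1 lower (8.36% and 7.51% of all genes), and DESeq2 called 1 higher and 1 lower (10.6% and 9.65%). Without control library 1 limma called 2 at 5 weeks, *Lck* being added. The medians of the 13 log2 fold changes were 0.22 at 2 weeks and 0.34 at 5 weeks, and those of all genes 0.01 and 0.02.

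*Trac* thus went the other way from the other T cell genes that passed. It lies on chromosome 14 from 54220521 to 54224206 of GRCm38. At 1 week it had 59.1, 78.7 and 69.2 normalized reads in control and 49.0, 109 and 129 in OE kidneys, which overlapped, with a log2 fold change in limma of 0.36 (SE 0.48, adjusted p = 0.597). At 2 weeks it fell, with 194, 88.9 and 74.0 in control and 19.5, 25.8 and 55.1 in OE kidneys and a log2 fold change in limma of -1.80 (SE 0.48, adjusted p = 0.004). At 5 weeks it had 84.5, 137 and 119.7 and 50.4, 15.9 and 30.8, with a log2 fold change in limma of -1.90 (SE 0.48, adjusted p = 0.0137). All OE libraries lay below all controls at both later times, as in 29.9% and 17.8% of all tested genes at 2 and 5 weeks. The change of the effect was -2.16 from 1 to 2 weeks and -2.26 from 1 to 5 weeks on the log2 scale, with adjusted p-values of 0.0559 and 0.0543 from limma and 0.0104 and 0.0129 from DESeq2, which called 9.08% and 6.98% of all genes lower in these comparisons. The call at 5 weeks was lost without control library 2 (adjusted p = 0.0567) or OE library 2 (adjusted p = 0.0733). *Trbc1* and *Trbc2*, which encode the partner chain, had log2 fold changes of 0.41 and -0.29 at 2 weeks and 0.34 and 0.86 at 5 weeks, none past the test. Among controls, *Trac* was highest in library 2 at 1 and 5 weeks (78.7 and 137). There *Trbc1* (3.28 and 1.82) and *Trbc2* (3.28 and 2.73) were lowest. At 2 weeks control library 1 was highest for *Trac*, *Trbc1* and *Trbc2* alike. The cause was not tested.

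T cell genes below the minimum were read from few reads. *Foxp3* had 7 reads over the 3 control libraries and 23 over the 3 OE libraries at 1 week, 5 and 22 at 2 weeks, then 8 and 16 at 5 weeks. *Ctla4* had 4 and 21, 3 and 34, and 7 and 7 reads. Its OE libraries lay above the controls at 1 and 2 weeks in normalized reads, and those of *Foxp3* at 2 weeks. The lowest OE and highest control values were 3.42 and 3.34 for *Ctla4* at 1 week, and 2.67 and 2.58 for both genes at 2 weeks. These gaps are smaller than the worth of 1 read. *Cd5*, an inhibitory receptor of T cells, had 22 and 75 reads at 1 week, 17 and 27 at 2 weeks, then 13 and 33 at 5 weeks, without overlap at 1 and 5 weeks. At 5 weeks its nearest values, 5.61 in OE and 5.47 in control, were also less than 1 read apart. With no minimum on the mean, limma called none of the 4 genes below it at any time, with 1 of them (*Foxp3*, 1 week) under an unadjusted p of 0.05 at 1 week and 1 (*Ctla4*) at 2 weeks, where 14.3% and 21.7% of all genes were higher by that rule. EdgeR without a minimum called *Ctla4* at 2 weeks (log2 fold change 2.92, adjusted p = 0.0482), with 15.3% of all genes.

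Of the 6 tested NK and cytotoxic genes, 4 rose at 1 week from limma and 0 fell, against 18.7% and 15.6% of all genes. All 6 were higher at an unadjusted p under 0.05, as were 22.9% of all genes, and the median log2 fold change was 2.11. *Il2rb*, the IL-2 and IL-15 receptor beta chain, had 3.34, 2.19 and 29.8 normalized reads in control and 28.5, 51.5 and 80.7 in OE kidneys. Control library 3 lay within the OE range, and the difference passed with a log2 fold change in limma of 2.74 (SE 0.73, adjusted p = 0.00872). *Klrd1*, which encodes CD94, a partner of NKG2 receptors on NK cells, had 8.92, 2.19 and 6.39 in control and 18.2, 32.4 and 30.9 in OE kidneys, without overlap, with a log2 fold change in limma of 2.15 (SE 0.69, adjusted p = 0.0229). *Cxcr6*, the receptor of the chemokine CXCL16, had 10.03, 7.65 and 24.5 and 36.5, 37.2 and 111, also without overlap, with a log2 fold change in limma of 2.01 (SE 0.73, adjusted p = 0.0425). *Cxcr6* lies within a gene of the opposite strand, *Fyco1*, so reads of one could be counted for the other if the counting used no strand.

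*Gzmb*, the serine protease granzyme B, had 0, 0 and 22.4 normalized reads in control and 14.8, 12.4 and 77.3 in OE kidneys at 1 week. It passed in limma with a log2 fold change in limma of 3.16 (SE 1.08, adjusted p = 0.0322) but not in edgeR (adjusted p = 0.138) or DESeq2 (adjusted p = 0.175), and control library 3 overlapped the OE range. *Gzma*, granzyme A, had 10.03, 3.28 and 23.4 in control and 23.9, 39.1 and 52.4 in OE kidneys, and *Nkg7*, a protein of cytotoxic granules, 6.69, 1.09 and 13.8 and 12.5, 17.2 and 72.1. Both missed the threshold in limma, with log2 fold changes of 1.84 and 2.08 and adjusted p-values of 0.0576 and 0.0602, and *Nkg7* passed in edgeR (adjusted p = 0.0414). Control library 3 was the highest control of 7 of the 8 NK and cytotoxic genes at 1 week, and OE library 3 the highest OE library of 5. Limma called 0 of the 6 without control library 2, 1 without OE library 3, 2 without control library 1 or OE library 2, 5 without OE library 1 and 6 without control library 3. The share of all genes called in those fits was not computed. *Il2rb* was lost without control library 2 (adjusted p = 0.0509), *Klrd1* without control library 2 or OE library 2 or 3 (0.106, 0.0705 and 0.0714), *Cxcr6* without control library 1 or 2 or OE library 2 or 3 (0.0538 to 0.186) and *Gzmb* without control library 1 or 2 or OE library 3 (0.137 to 0.155). *Cxcr6* was also lost with *Xist* as a covariate (0.0605) and with no minimum (0.0796), and *Gzmb* with no minimum (0.0535), with that week alone (0.0763) and in the libraries with *Ddx3y* above 100 (0.0569).

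At 2 weeks only *Klrd1* of the 6 tested NK and cytotoxic genes passed in limma, where 28.9% of all genes were called higher. It had 12.9, 3.33 and 3.42 normalized reads in control and 11.6, 16.0 and 51.0 in OE kidneys, with a log2 fold change in limma of 1.79 (SE 0.69, adjusted p = 0.0338). OE library 1 lay below the highest control, and the call was lost without OE library 3 (adjusted p = 0.174), without control library 2 or 3 (0.115 and 0.111), with no minimum (0.0633), with *Xist* as a covariate (0.0617), with that week alone (0.0535) and in the libraries with *Ddx3y* above 100 (0.236). *Gzmb* had 5.16, 3.33 and 4.56 in control and 7.11, 31.2 and 41.3 in OE kidneys, without overlap, with a log2 fold change in limma of 2.07 (SE 1.08, adjusted p = 0.112). *Cxcr6* had 25.8, 5.56 and 14.8 and 1.78, 8.90 and 18.6 and a log2 fold change of -0.79, which did not pass (adjusted p = 0.373 from limma), and the change of its effect between 1 and 2 weeks, -2.80 on the log2 scale, did not pass either (adjusted p = 0.102). The median over the 6 genes was 0.66.

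At 5 weeks limma, edgeR and DESeq2 called 0 of the 6, where limma called 7.67% of all genes higher, with 2 higher and 0 lower at an unadjusted p under 0.05 in limma (14.7% and 15% of all genes) and a median log2 fold change of 1.42. *Il2rb* had 8.45, 4.56 and 3.07 normalized reads in control and 18.01, 9.35 and 33.4 in OE kidneys, without overlap, and a log2 fold change in limma of 1.66 (SE 0.73, adjusted p = 0.139). *Gzmb* had no read in any control library and 12 reads over the OE libraries, with 6.30, 0 and 4.39 normalized reads. With the control group set to a floor of 3 reads, the OE mean was 3.58 times that floor (2.20 times without OE library 1). This figure leaves out the error of the OE mean, which rests on the 12 reads. With it in place of the fitted value of *Gzmb*, the median of the 6 genes was also 1.42. *Ncr1*, which encodes the NK cell receptor NKp46 and stayed below the minimum, had 11 reads over the control and 26 over the OE libraries at 1 week, 14 and 31 at 2 weeks, then 4 and 26 at 5 weeks. At 5 weeks all its OE libraries lay above all controls, the nearest values being 2.80 in OE and 2.11 in control. *Prf1*, perforin, went from 15 and 22 reads at 1 week to 13 and 14 at 2 weeks, then 29 and 13 at 5 weeks, with overlapping libraries. With no minimum, limma called neither gene, with adjusted p-values of 0.262 for *Ncr1* and 0.304 for *Prf1* at 5 weeks.

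**Figure D3:**
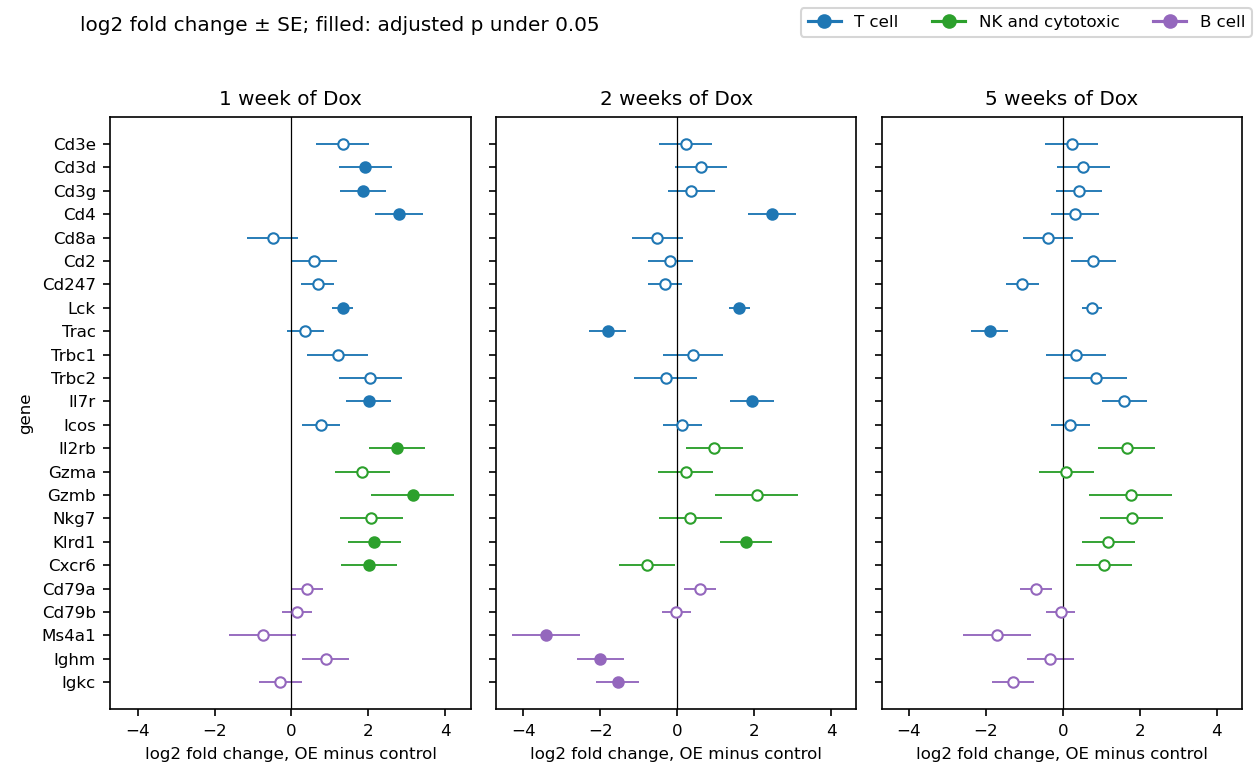
log2 fold change of OE against control kidneys (x axis) for each of the 24 tested genes (y axis) after 1, 2 and 5 weeks of Dox, with bars of 1 standard error, blue for T cell, green for NK and cytotoxic and purple for B cell genes, and filled points for an adjusted p under 0.05 from limma. Filled points lie to the right for 5 T cell and 4 NK and cytotoxic genes at 1 week, on both sides at 2 weeks and at *Trac* alone at 5 weeks.

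Of the 5 tested B cell genes, 3 were lower in OE kidneys at 2 weeks and 0 higher from limma (*Ms4a1*, *Ighm* and *Igkc*), where 28.8% of all genes were called lower. The median log2 fold change of the 5 was -1.55, and it was 0.14 at 1 week and -0.69 at 5 weeks. At 1 week limma, edgeR and DESeq2 called 0 of the 5, with 0 under an unadjusted p of 0.05 in limma. At 5 weeks they also called 0, with 0 higher and 1 lower at an unadjusted p under 0.05 (14.7% and 15% of all genes). Without OE library 1 or 2 the count at 2 weeks went from 3 to 1, *Ms4a1*, and without OE library 1 the count at 5 weeks went from 0 to 1, *Igkc*.

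*Ighm* lies on chromosome 12 from 113418558 to 113422730 of GRCm38 and had the most reads of the B cell genes. At 1 week it had 269.8, 143 and 158 normalized reads in control and 349.9, 443 and 253 in OE kidneys, which overlapped, with a log2 fold change in limma of 0.89 (SE 0.61, adjusted p = 0.28). At 2 weeks it had 229.8, 173 and 214 in control and 26.7, 29.4 and 162 in OE kidneys, with a log2 fold change in limma of -1.99 (SE 0.61, adjusted p = 0.0101). OE libraries 1 and 2 were far below the controls, and OE library 3 was just below the lowest of them. The OE effect differed between 2 and 1 weeks by -2.89 on the log2 scale (standard error 0.86, adjusted p = 0.0463 from limma), and this was the only member that passed an interaction test between weeks, where limma called 9.07% of all genes between 2 and 1 weeks, 6.99% between 5 and 1 weeks and 29.3% between 5 and 2 weeks. In edgeR the fall at 2 weeks had an adjusted p of 0.0509. The difference between weeks did not pass in edgeR (0.0969), with no minimum (0.0668), with upper-quartile rescaling (0.0538) or with *Xist* as a covariate (0.0552). When the 12 libraries of these weeks were left out 1 at a time, it was lost for 11 of them (0.0507 to 0.109) and kept without OE library 3 at 2 weeks (0.00487). Without OE library 1 or 2 the call at 2 weeks was lost (adjusted p = 0.0571 and 0.0533). At 5 weeks the values were 155, 118 and 203 and 224, 43.9 and 192, where OE library 2 alone was below all controls, with a log2 fold change in limma of -0.32 (SE 0.61, adjusted p = 0.774).

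Between weeks, limma called 0 of the 13 T cell and 0 of the 6 NK and cytotoxic genes in all 3 interaction tests, as did edgeR, while DESeq2 called *Trac* between 2 and 1 and between 5 and 1 weeks. At an unadjusted p under 0.05, limma gave 1, 3 and 2 T cell genes and 1, 0 and 0 NK and cytotoxic genes for 2 against 1, 5 against 1 and 5 against 2 weeks, all with a lower signed log2 fold change at the later time, as were 15.1%, 13.1% and 19.4% of all genes. The smaller count of calls at 5 weeks is therefore not shown to be a change of the effect for any T cell or NK gene in limma. Of the B cell genes, 0 passed between 5 and 1 and between 5 and 2 weeks in limma, edgeR and DESeq2, with 0 and 1 under an unadjusted p of 0.05 in limma.

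*Igkc* passed at 2 weeks alone. It had 54.6, 27.3 and 34.1 normalized reads in control and 26.2, 42.0 and 24.9 in OE kidneys at 1 week, with a log2 fold change in limma of -0.29 (SE 0.55, adjusted p = 0.72). The log2 ratio of *Ighm* to *Igkc* was 3.45 ± 0.209 in OE and 2.27 ± 0.0863 in control kidneys (SD, n = 3, exact two-sided permutation p = 0.1), without overlap. At 2 weeks this ratio lay the other way and overlapped, at 1.74 ± 0.638 in OE and 2.19 ± 0.371 in control kidneys (SD, n = 3, exact permutation p = 0.4), and at 5 weeks it was 2.89 ± 0.368 and 1.92 ± 0.418 (SD, n = 3, exact permutation p = 0.1), without overlap. At 2 weeks *Igkc* had 67.1, 31.1 and 41.0 and 9.77, 10.7 and 28.3, again without overlap, and a log2 fold change in limma of -1.55 (SE 0.55, adjusted p = 0.0246). That call was lost without control library 1 (adjusted p = 0.0985), OE library 1 (0.0919) or OE library 2 (0.0843). At 5 weeks the values were 28.5, 37.4 and 60.4 and 36.0, 5.61 and 18.5, with a log2 fold change in limma of -1.29 (SE 0.55, adjusted p = 0.128).

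*Ms4a1*, which encodes CD20, a surface protein of mature B cells, had 25.8, 17.8 and 18.2 normalized reads in control and 0, 0 and 7.29 in OE kidneys at 2 weeks, 52 reads against 9. The groups did not overlap, and the difference passed with a log2 fold change in limma of -3.40 (SE 0.88, adjusted p = 0.00346) and under every other setting in which the gene was tested. At 1 week it had 16.7, 10.9 and 6.39 and 3.42, 9.54 and 6.01 and at 5 weeks 13.7, 5.47 and 24.6 and 11.7, 0 and 4.39, with log2 fold changes of -0.75 and -1.72 that did not pass (adjusted p = 0.546 and 0.206). An antisense gene lies over it in the annotation.

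The signalling chains of the B cell receptor did not pass at any time in limma with all libraries. At 2 weeks *Cd79a* had 11.6, 28.9 and 9.11 normalized reads in control and 29.3, 16.9 and 23.5 in OE kidneys, with a log2 fold change in limma of 0.60 (SE 0.41, adjusted p = 0.227). *Cd79b* had 99.4, 51.1 and 50.1 and 67.5, 50.8 and 71.2, with a log2 fold change in limma of -0.02 (SE 0.38, adjusted p = 0.966). Both overlapped between the groups. Without control library 2, *Cd79a* was higher at 2 weeks (log2 fold change 1.07, adjusted p = 0.0346). The log2 ratio of *Cd79a* to *Ms4a1* was 3.55 ± 1.76 in OE and -0.448 ± 0.972 in control kidneys at 2 weeks and 1.14 ± 0.320 and -0.018 ± 0.472 at 1 week (SD, n = 3, exact two-sided permutation p = 0.1 for both), without overlap, and at 5 weeks 0.316 ± 1.91 and -0.712 ± 0.668 with overlap (SD, n = 3, exact permutation p = 0.6). At 5 weeks *Cd79a* had 7.40, 5.47 and 9.21 and 5.40, 4.67 and 2.64, with a log2 fold change in limma of -0.69 (SE 0.41, adjusted p = 0.283). All OE libraries were below the controls in normalized reads, but the nearest values, 5.40 and 5.47, were less than the worth of 1 read apart. *Jchain*, the joining chain of secreted IgM and IgA that marks plasma cells, stayed below the minimum, with 28 reads over the control and 24 over the OE libraries at 1 week, 35 and 40 at 2 weeks, then 26 and 25 at 5 weeks.

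Other genes of these cells gave a wider view. Over all genes, limma called 18.7%, 28.9% and 7.67% higher and 15.6%, 28.8% and 7.9% lower at 1, 2 and 5 weeks, beside which the counts below are to be read. Of 20 tested T cell genes outside the list, 5, 3 and 5 were higher and 1, 1 and 0 lower at 1, 2 and 5 weeks, with median log2 fold changes of 0.63, 0.27 and 0.71. *Lag3*, an inhibitory receptor of activated T cells, rose at each time, by log2 fold changes of 1.38, 2.35 and 2.48 (adjusted p = 0.00257, 7.12e-06 and 1.29e-04 from limma). *Bcl11b*, a T lineage factor, was lower at 1 and 2 weeks, with log2 fold changes of -1.10 and -2.87 and control means of 311 and 371 normalized reads. Of 6 tested NK genes outside the list, 3, 4 and 1 were higher at 1, 2 and 5 weeks and 0 were lower. They included *Ccl5*, a chemokine of cytotoxic lymphocytes and other cells, with log2 fold changes of 4.28, 4.43 and 2.70. Of 15 tested B and plasma cell genes outside the list, 3, 5 and 1 were higher and 0, 5 and 0 lower at 1, 2 and 5 weeks. At 2 weeks *Ighd*, the IgD constant region, and *Mzb1*, a chaperone of antibody assembly, were lower, by log2 fold changes of -2.83 and -2.18, while *Cd72* and *Cd37*, surface proteins found on B cells and also on other leukocytes, were higher, by 1.85 and 1.66.

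Of 17 tested ligands that attract lymphocytes or keep them alive, 9, 10 and 6 were higher and 2, 2 and 1 lower at 1, 2 and 5 weeks. *Cxcl10*, a ligand of CXCR3 on T and NK cells, was at 5452 ± 2034 normalized reads in OE and 35.3 ± 8.56 in control kidneys at 1 week, 9329 ± 1607 against 72.5 ± 18.1 at 2 weeks and 198 ± 18.2 against 31.1 ± 5.97 at 5 weeks (SD, n = 3). *Ccl20*, a ligand of CCR6, had log2 fold changes of 7.28, 7.24 and 4.89. *Tnfsf13b*, the B cell survival factor BAFF, had a log2 fold change of 2.27 at 5 weeks (adjusted p = 9.05e-04 from limma), and it was among the genes called higher at 1 and 2 weeks too. *Il15* was called lower at each time.

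Markers of other cells moved at the same times, and their part in the lymphocyte values was not tested. Macrophage and monocyte markers were higher for 13, 14 and 12 of 14 at 1, 2 and 5 weeks, and their summed normalized reads were 21086 to 23869, 23723 to 50221 and 13781 to 20595 in OE against 3632 to 5175, 3603 to 4999 and 3767 to 4608 in control kidneys. Neutrophil markers were higher for 5, 6 and 2 of 6, and dendritic cell markers for 2, 1 and 2 of 7 with 1 lower at 2 weeks. Red blood cell markers were lower for 6, 6 and 3 of 6, with sums of 9530.0 to 23367, 3121 to 8015 and 13528 to 71725 in OE against 61536 to 85976, 68616 to 74256 and 56380.1 to 214650.2 in control kidneys. Kidney epithelium markers, which define the labelled tissue and were present in every library, were lower for 4, 7 and 6 of 8, with sums of 157293 to 200638, 70366 to 96033 and 154592 to 173403 against 324154 to 364859, 379161 to 420794 and 302449.7 to 367006. Of the 4 tested lymph node stroma markers 1, 2 and 0 were higher, and summed they ran from 180.1 to 197, 222 to 824 and 153 to 234 in OE kidneys against 47.0 to 99.2, 55.8 to 167 and 75.0 to 121 in controls. Below the minimum in the same list, *Glycam1* and *Chst4*, markers of the high endothelial venules of lymph nodes, were at 3.42 and 5.33 normalized reads or less, with no read in 10 libraries each. Fat cell markers ranged widely within every group, *Adipoq* from 4.39 to 1090 normalized reads over the 18 libraries, and limma called 1 of 4 lower at 2 weeks and none at 1 or 5 weeks.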

How the data were processed

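Kidney RNA was poly(A)-selected and sequenced in 18 libraries, 3 for each genotype and time. Alignment to mm10 (STAR) and counting per gene (HTSeq) were done by the authors, and each deposited signal value is such a count over the DESeq2 size factor of its library. Versions, the counting annotation and the strand setting are not given in the sources used here. Dividing by the worth of 1 read returned whole reads for 100% of values, within a tolerance of 0.001. Gene identifiers matched a GRCm38 annotation (GENCODE M21) for 99.5%, which gave positions, exon lengths and overlaps. Promoters came from RefSeq, GRCm38.p6.

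All 31 genes, and the other lists, were chosen with earlier results of these data known. Genes with a mean above 10 were tested with limma 3.58.1 in R 4.3.3 on log2(value + 1) with an intensity trend, in 1 fit of 18 libraries, with Benjamini-Hochberg adjustment over 16984 genes. Contrasts were OE against control at each week, the differences of these effects between weeks, and controls between weeks. Ratios of members were compared by exact permutation. All 31 genes are named, with *Lin28a* and *Ptprc*. From each other list, up to 4 genes per week that passed the test without overlap of libraries could be named, largest change first. *Il15*, *Adipoq*, *Glycam1*, *Chst4*, *Xist* and *Ddx3y*, and the earlier weeks of *Tnfsf13b*, were named after their values were seen. Alternatives were pseudocounts of 0.5 and 5, no minimum, a mean above 50, upper-quartile rescaling, edgeR 4.0.16 with TMM and DESeq2 1.42.0 on the recovered reads, each week alone, the replicate number as a block, *Xist* as a covariate, and dropping 1 library at a time. Chosen after seeing the data were edgeR without a minimum, a fit of the 12 libraries with *Ddx3y* above 100 and, for summed levels, scaling to the total of all values of each library and leaving out each library. No replicate pair of a group held identical values or agreed within sampling noise. Scripts were tested on simulated data, and figures were drawn with matplotlib 3.10.9. For genes with few reads, counting error limits the precision.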

Additional observations from a re-analysis of the deposited data

Results flagged for a closer look

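One result stood out because the OE effect differed between times by a test of the difference itself. The log2 fold change of *Ighm* was 0.89 at 1 week and -1.99 at 2 weeks, a difference of -2.89 (adjusted p = 0.0463 from limma). OE libraries exceeded the highest control in 2 of 3 samples at 1 week and lay below the lowest control in 3 of 3 at 2 weeks. DESeq2 gave an adjusted p of 0.0311 for the difference. It was 0.0969 in edgeR, 0.0668 with no minimum, 0.0538 with upper-quartile rescaling and 0.0552 with *Xist* as a covariate, and leaving out single libraries ended the call for 11 of the 12 (0.0507 to 0.109). Its cause was not tested.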

How the results depend on the processing

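None of the 18 calls of single genes turned its direction under any setting run, and 6 were kept under every one, *Cd4* and *Lck* at 1 and 2 weeks and *Trac* and *Ms4a1* at 2 weeks. Over all tested genes and settings, 1117 of 1239 values kept their direction and their side of the threshold, 49 lost a call, 31 gained one and 42 changed sign, all 42 in genes that had not passed. No scaling moved the median of all genes by over 0.1 on the log2 scale. The cause of the changes below was not tested, except that a mean above 50 left fewer genes to test. At this depth a gene near the minimum rests on few reads per library, so a difference that did not pass may lie below what these libraries can show.

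Counts of called genes (higher and lower together) changed by over 1.5 times as follows. At 1 week, T cell calls went from 5 to 3 without a minimum, to 8 in the 12 libraries whose *Ddx3y* exceeded 100, and to 2 of 3 tested with a mean above 50. NK and cytotoxic calls went from 4 to 2 without a minimum, and B cell calls from 0 to 1 (*Ighm*) with that week alone. At 2 weeks, NK and cytotoxic calls went from 1 to 0 without a minimum, with *Xist* as a covariate and in the *Ddx3y* libraries, and to 2 in edgeR without a minimum and with the replicate block. B cell calls went from 3 to 1 with a mean above 50. At 5 weeks, T cell calls went from 1 to 2 in DESeq2 and with that week alone. For 2 against 1 weeks, T cell calls went from 0 to 1 in DESeq2, in edgeR without a minimum and in the *Ddx3y* libraries, and NK and cytotoxic calls to 1 in the latter. B cell calls went from 1 (*Ighm*) to 0 without a minimum, with upper-quartile rescaling, in edgeR and with *Xist*, and to 2 in the *Ddx3y* libraries. For 5 against 1 weeks, T cell calls went from 0 to 1 in DESeq2, in edgeR without a minimum and in the *Ddx3y* libraries. For 5 against 2 weeks, the *Ddx3y* libraries gave 1 NK and cytotoxic and 2 B cell calls in place of 0. Of all genes, 15.6% and 32% were called at 1 and 2 weeks without a minimum, 33.6% and 48.1% in the *Ddx3y* libraries, and 39.4% and 63% with a mean above 50. In the *Ddx3y* libraries *Cd8a* was lower at 2 weeks (log2 fold change -2.18, adjusted p = 0.0315). In that fit 1 OE library remains at 2 weeks and 1 lone sample is assumed to vary like the other groups. Without *Ighm*, the log2 difference of the B cell sum was -0.077 in place of 0.59 at 1 week and -0.47 in place of -1.08 at 2 weeks.

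Leaving out 1 library at a time gave 2 to 7, 3 to 4 and 0 to 2 T cell calls at 1, 2 and 5 weeks, 0 to 6, 0 to 1 and 0 to 0 NK and cytotoxic calls, and 0 to 0, 1 to 4 and 0 to 1 B cell calls. It gave 0 to 1 in each set for 2 against 1 weeks, 0 to 1, 0 to 0 and 0 to 0 for 5 against 1 weeks, and 0 to 1, 0 to 0 and 0 to 1 for 5 against 2 weeks. The most T cell calls at 1 week came without OE library 1, and the fewest without OE library 2 or 3. The share of all genes called in these fits was not computed, so the ranges describe the members only.

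Signs turned for genes that had not passed. At 2 weeks log2 fold changes of 0.029 for *Cd8a* and 0.11 for *Cd2* in edgeR, 0.063 for *Cd2* in DESeq2 and 0.071 in edgeR without a minimum were above 0. In the *Ddx3y* libraries *Cd3e* (-1.10), *Cd3g* (-0.13), *Icos* (-0.999), *Nkg7* (-0.18) and *Cd79b* (0.41) turned at 2 weeks and *Ighm* (0.61) at 5 weeks. Without single libraries the log2 fold change of *Cd79b* was -0.14 to 0.51 at 1 week. At 2 weeks it was -0.14 to 0.82 for *Cd3e*, -0.15 to 0.78 for *Cd3g*, -1.26 to 0.33 for *Cd8a*, -0.75 to 0.23 for *Cd2*, -0.49 to 0.028 for *Cd247*, -0.74 to 0.19 for *Trbc2*, -0.21 to 0.62 for *Icos*, -0.27 to 0.59 for *Gzma*, -0.089 to 0.72 for *Nkg7* and -0.19 to 0.30 for *Cd79b*. At 5 weeks it was -0.24 to 0.97 for *Cd3e*, -0.011 to 1.13 for *Cd3d*, -0.15 to 1.03 for *Cd3g*, -0.052 to 0.95 for *Cd4*, -0.81 to 0.015 for *Cd8a*, -0.29 to 0.66 for *Trbc1*, -0.44 to 0.95 for *Gzma*, -0.31 to 0.22 for *Cd79b* and -0.75 to 0.42 for *Ighm*.

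OE and control libraries share replicate numbers, but same-numbered libraries did not deviate together, with correlations of -0.05, 0.01 and 0.17 (1 week), -0.12, 0.08 and -0.19 (2 weeks) and 0.21, 0.08 and 0.0045 (5 weeks), and not every library correlated best with its own number. With the replicate block, limma called 6, 4 and 1 T cell genes, 5, 2 and 0 NK and cytotoxic genes and 0, 3 and 0 B cell genes at 1, 2 and 5 weeks, and 33.6%, 57.5% and 15% of all genes, against 34.3%, 57.7% and 15.6% without it.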
